A study of Homo sapiens with 10 samples.

Results

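Intermediate filaments are the ropelike part of the cytoskeleton, and 10 genes that encode them in neurons, glia, progenitors and muscle were followed here: NEFL, NEFM, NEFH, INA, PRPH, NES, VIM, GFAP, SYNM and DES. They were chosen by name, as members of 1 protein family, and are 10 of the 30357 named genes in the gene-level tables. All 10 were listed in every library. DES did not pass the filter on low counts, which leaves 9 that could be tested.

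RNA was sequenced from sensory neurons made from human embryonic stem cells of the established line RUES2, in 1 derivative that carries a tdTomato reporter at AVIL, a gene active in sensory neurons. Cultures were collected at day 60 in vitro after 1 of 3 differentiation protocols. The proprioceptor protocol (aimed at neurons that sense muscle stretch) gave 3 libraries, the mechanoreceptor protocol (touch) gave 3 and the nociceptor protocol (pain) gave 4. The labels give no other treatment, do not say whether cells were purified by the reporter, and call the libraries biological replicates without saying that each came from its own differentiation. The p-values here therefore reflect only how these libraries vary, and part of that variation may be technical.

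In nerve cells of adult animals, the light, medium and heavy neurofilament subunits (NEFL, NEFM and NEFH) copolymerize with alpha-internexin (INA) in the central nervous system and with peripherin (PRPH) in peripheral nerves, and the amount of neurofilament helps to set axon calibre. Dividing progenitors carry vimentin (VIM) and nestin (NES) instead. Large myelinated proprioceptors and touch neurons are classically recognised by heavy neurofilament, and small unmyelinated nociceptors by peripherin. Vimentin is also the main intermediate filament of Schwann cells, fibroblasts and other mesenchymal cells, glial fibrillary acidic protein (GFAP) marks astrocytes and some peripheral glia, desmin (DES) marks muscle, and synemin (SYNM) is a large partner that needs one of the others to form filaments.

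The promoters of INA, PRPH, NES, VIM and SYNM were matched by symbol in RefSeq's table for GRCh38.p14, which is 5 of the 10 genes. The PRPH and VIM promoters are printed because these genes stood for the neuronal and the non-neuronal side of the family in what follows, and their levels moved differently over the libraries. Each run is the 250 bases before the annotated start, 5′ to 3′ on the plus strand, at chr12:49294897-49295146 for PRPH and chr10:17227991-17228240 for VIM. Capitals mark a match to TATAAA (the TATA box) or GGGCGG (the GC box, bound by SP1-type factors).
PRPH: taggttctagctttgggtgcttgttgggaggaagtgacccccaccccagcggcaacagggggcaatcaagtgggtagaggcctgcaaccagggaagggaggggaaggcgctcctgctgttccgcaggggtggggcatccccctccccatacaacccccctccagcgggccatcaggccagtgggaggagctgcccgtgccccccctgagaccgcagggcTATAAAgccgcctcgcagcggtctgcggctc
VIM: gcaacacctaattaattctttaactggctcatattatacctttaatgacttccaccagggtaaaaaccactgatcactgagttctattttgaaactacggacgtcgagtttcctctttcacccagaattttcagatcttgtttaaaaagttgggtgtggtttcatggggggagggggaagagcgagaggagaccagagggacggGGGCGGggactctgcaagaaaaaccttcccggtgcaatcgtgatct
The PRPH run holds 66.8% G and C and the VIM run 46.0%, against a median of 58.0% over 35116 promoters of the same length. TATAAA lies 31 bases before the PRPH start and was found, on either strand, in 10.7% of all promoters. It was not in the windows of INA, NES, VIM or SYNM. GGGCGG was found 1 time in VIM, 2 times in NES and 4 times each in INA and SYNM, was not in the PRPH window, and occurs in 42.6% of all promoters. The E box CAGCTG had 1 match, in INA, and occurs in 14% of promoters, and TGANTCA (the AP-1 motif, with N for any base) had none in these windows and occurs in 6.57%. Of the GC box matches in SYNM, 1 pair overlaps, no match overlaps one of another motif, and a match is a stretch of sequence, not a measured binding site.

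Named genes held between 27891186 and 44541262 estimated counts per library, and between 12066 and 14160 genes reached 1 TPM (a level per transcript length, on 1 scale for all libraries). Neuronal markers were abundant throughout: the summed TPM of 12 pan-neuronal genes was 9428 to 15833 in proprioceptor, 9538 to 13293 in mechanoreceptor and 5135 to 12176 in nociceptor libraries. Libraries of 1 protocol were far from alike. The first principal component of the log2 CPM (counts scaled to library size) carried 52.8% of the variance and put proprioceptor 2, mechanoreceptor 3 and nociceptor 1, 2 and 3 on one side and the other 5 libraries on the other side. Markers of Schwann and satellite glia and of mesenchyme were highest in the same 5 libraries, and their values are given below beside the genes they moved with.

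NEFL, NEFM and PRPH were among the 459 most abundant genes of every library under all 3 protocols, INA was less abundant and NEFH far less. The mean levels of these 5 neuronal genes were higher in proprioceptor and mechanoreceptor cultures than in nociceptor cultures, but no difference passed the test and the libraries of the protocols overlapped for every gene. The proportions in which NEFL, NEFM, NEFH, INA and PRPH stood to one another did not pass the test either, PRPH against NEFL included. Vimentin and nestin went the other way, with higher means in nociceptor cultures, and varied far more between libraries of the same protocol than the neuronal genes did.

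**Figure D1:**
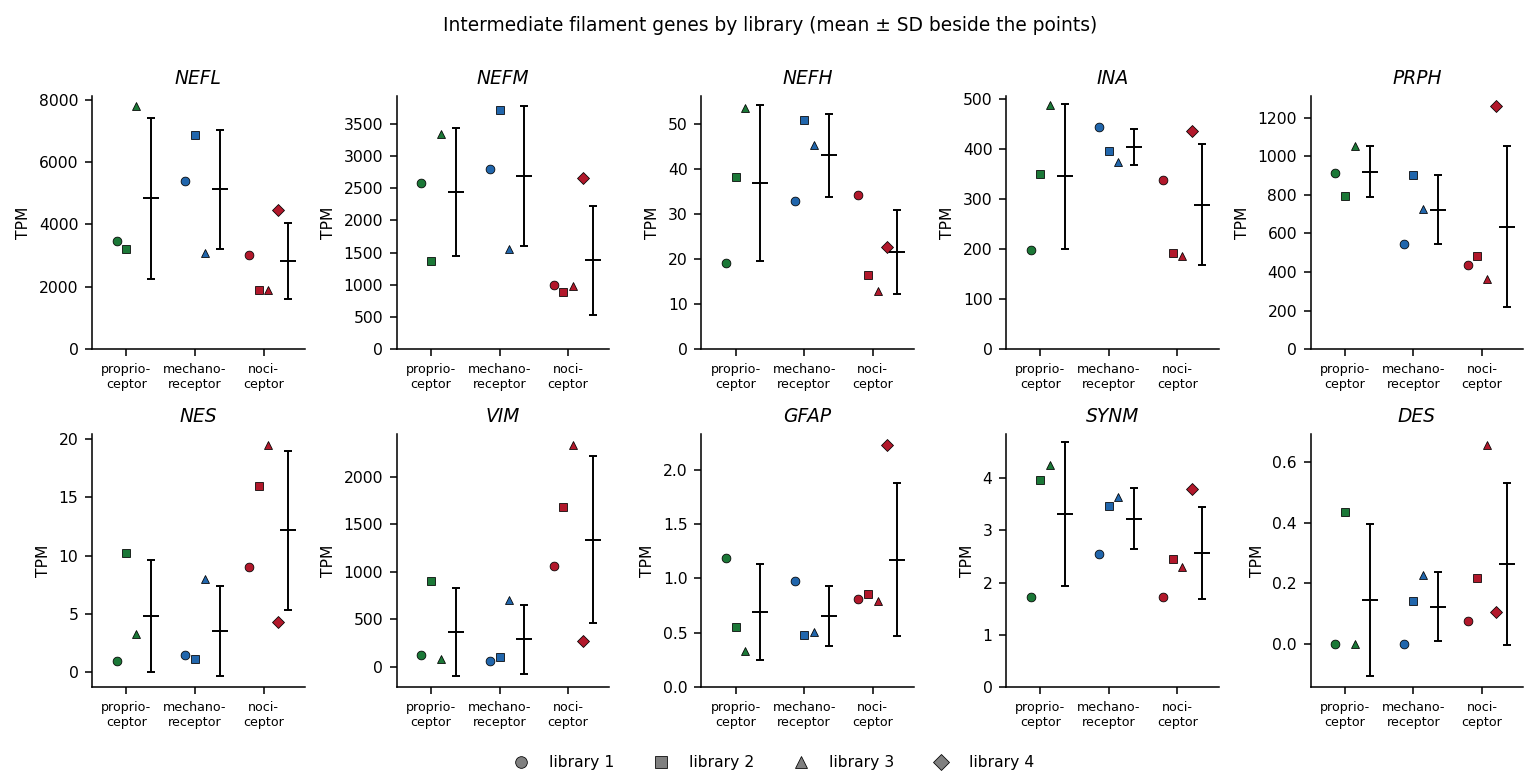
Level of each of the 10 genes in TPM (vertical axes, each with its own scale) in the 10 libraries, by protocol. Points are libraries, with the shape giving the library number within the protocol, and the bar beside them is the mean ± SD (n = 3, 3 and 4). The protocols overlap in every panel, and VIM and NES are highest in nociceptor 1, 2 and 3, proprioceptor 2 and mechanoreceptor 3.

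NEFL, the light subunit on which the other neurofilament subunits assemble, was the most abundant of the 10 genes in 9 libraries. It had 3465, 3228 and 7807 TPM in proprioceptor libraries 1 to 3, 5406, 6873 and 3091 TPM in mechanoreceptor libraries 1 to 3, and 3022, 1889, 1896 and 4464 TPM in nociceptor libraries 1 to 4. The highest value of each protocol lay above the lowest of both others, so the groups overlapped. It stood between rank 4 and rank 48 among all named genes of a library. The mean was 4833 ± 2578 TPM in proprioceptor, 5123 ± 1907 in mechanoreceptor and 2818 ± 1220 in nociceptor cultures (SD, n = 3, 3 and 4). Against nociceptor cultures the log2 fold change was 0.96 ± 0.47 (SE) in proprioceptor and 0.77 ± 0.47 in mechanoreceptor cultures, with adjusted p = 0.665 and 0.638 from edgeR's quasi-likelihood test, fitted to all 10 libraries and adjusted over 16130 genes by the Benjamini-Hochberg method. The first was 0.62 without proprioceptor 3 and the second 0.37 without mechanoreceptor 2. In bulk samples, fewer cells of a type and less RNA per cell cannot be told apart, which holds for all values here.

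NEFM, the medium subunit, whose long tail projects from the filament, was second among the neuronal members everywhere. Its levels were 2586, 1376 and 3343 TPM in proprioceptor libraries, 2794, 3714 and 1561 TPM in mechanoreceptor libraries, and 997, 885, 980.3 and 2651 TPM in nociceptor libraries. Nociceptor 1, 2 and 3 were the lowest of the 10 libraries, and nociceptor 4 lay among the proprioceptor and mechanoreceptor values. The log2 fold change was 1.04 ± 0.57 for proprioceptor and 0.81 ± 0.57 for mechanoreceptor against nociceptor cultures, with adjusted p = 0.665 and 0.668 (edgeR). Without proprioceptor 1 the first was 0.58 and without mechanoreceptor 2 the second was 0.41, while without nociceptor 4 they were 1.62 and 1.39.

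NEFH, the heavy subunit that marks large myelinated sensory neurons, was the least abundant of the triplet by a wide margin. It had 19.1, 38.1 and 53.5 TPM in proprioceptor, 32.8, 50.9 and 45.3 TPM in mechanoreceptor, and 34.2, 16.6, 13 and 22.7 TPM in nociceptor libraries. Only nociceptor 1 reached into the mechanoreceptor values, and proprioceptor 1 lay among the nociceptor values. NEFH averaged 36.9 ± 17.2 TPM in proprioceptor, 43.0 ± 9.25 in mechanoreceptor and 21.6 ± 9.31 in nociceptor cultures (SD), and its rank among all genes was 3094 to 7491. Its log2 fold change was 0.88 ± 0.34 in proprioceptor and 0.91 ± 0.34 in mechanoreceptor against nociceptor cultures. These had the smallest unadjusted p of the neuronal members, 0.0260 and 0.0214, which became 0.665 and 0.598 when edgeR's p-values were adjusted over the 16130 genes tested.

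INA, alpha-internexin, varied least of the neuronal members, 2.61-fold from the lowest to the highest library. It had 199, 351 and 488 TPM in proprioceptor, 445, 398 and 374 TPM in mechanoreceptor, and 339, 193, 187 and 438 TPM in nociceptor libraries. The mechanoreceptor libraries were close together, all within the proprioceptor range and 2 of 3 within the nociceptor range. The log2 fold change against nociceptor cultures was 0.38 ± 0.34 both for proprioceptor and for mechanoreceptor cultures (adjusted p = 0.711 and 0.726, edgeR). These small values rested on single libraries: the first was 0.15 without proprioceptor 3, the second 0.24 without nociceptor 3, and both were 0.64 without nociceptor 4.

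PRPH, the peripheral neuron filament used as a nociceptor marker, had 911, 794 and 1055 TPM in proprioceptor, 545, 902 and 724 TPM in mechanoreceptor, and 434, 482, 366 and 1260 TPM in nociceptor libraries. Nociceptor 4 held the highest value and nociceptor 3 the lowest of all 10. Its mean was 920.1 ± 130 TPM in proprioceptor, 724 ± 179 in mechanoreceptor and 636 ± 419 in nociceptor cultures (SD). The log2 fold change was 0.81 ± 0.45 for proprioceptor against nociceptor cultures (adjusted p = 0.665), 0.12 ± 0.45 for mechanoreceptor against nociceptor cultures (adjusted p = 0.952) and 0.69 ± 0.49 for proprioceptor against mechanoreceptor cultures (adjusted p = 1, all edgeR). The first of these values was 0.42 without proprioceptor 1 and 1.31 without nociceptor 4. The second was -0.16 without mechanoreceptor 2, -0.08 without nociceptor 1, -0.05 without nociceptor 3 and 0.62 without nociceptor 4. In gene-level TPM the nociceptor protocol thus had the lowest mean of this nociceptor marker and, in nociceptor 4, the highest single value. With only transcripts annotated as protein coding, nociceptor 4 had 592 TPM and proprioceptor 3 had 591 TPM, nearly the same.

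VIM had the widest range of the 9 tested genes. It had 125, 901 and 79.1 TPM in proprioceptor, 63.8, 99.1 and 702 TPM in mechanoreceptor, and 1064, 1687, 2330 and 276 TPM in nociceptor libraries, a 36.5-fold span. Proprioceptor 2 and mechanoreceptor 3 stood near the nociceptor values, and nociceptor 4 stood nearer the other proprioceptor and mechanoreceptor libraries, so the protocols overlapped. The log2 fold change was -1.94 ± 1.06 for proprioceptor and -2.36 ± 1.08 for mechanoreceptor against nociceptor cultures, with adjusted p = 0.665 and 0.598 (edgeR). In nociceptor 3, VIM exceeded NEFL and was the most abundant of the 10. Without proprioceptor 2 the first value became -3.26, and without mechanoreceptor 3 the second became -4.24, neither past an adjusted p of 0.05 (edgeR).

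NES, which encodes a long filament protein that pairs with vimentin in dividing progenitors, was high in the same 5 libraries at a far lower level. It had 0.939, 10.2 and 3.32 TPM in proprioceptor, 1.52, 1.18 and 8.0 TPM in mechanoreceptor, and 9.0, 15.9, 19.4 and 4.28 TPM in nociceptor libraries. Nociceptor 2 and 3 exceeded every proprioceptor and mechanoreceptor library, while nociceptor 1 lay below proprioceptor 2 and nociceptor 4 below both proprioceptor 2 and mechanoreceptor 3. The log2 fold change was -1.45 ± 0.83 for proprioceptor (adjusted p = 0.665) and -1.91 ± 0.85 for mechanoreceptor (adjusted p = 0.598, unadjusted 0.0454) against nociceptor cultures by edgeR. As for VIM, 1 library decided the size of each: without proprioceptor 2 the first was -2.42, and without mechanoreceptor 3 the second was -3.39.

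Markers of other cells moved with VIM and NES. The mean log2 CPM of 9 Schwann and satellite glia genes was 2.82, 6.07 and 2.02 in proprioceptor, 1.35, -0.205 and 5.90 in mechanoreceptor, and 6.92, 6.34, 7.0 and 4.38 in nociceptor libraries. The 4 libraries with the lowest glial level had the 4 lowest VIM values, and the 5 with the highest had the 5 highest. The summed TPM of these 9 genes was 67.2 to 2087 in proprioceptor, 17.6 to 1705 in mechanoreceptor and 396 to 4689 in nociceptor libraries, none was listed at 0 counts throughout, and 8 of 9 had a negative log2 fold change in both contrasts with nociceptor cultures. For 11 mesenchymal genes, which include collagens and fibronectin, the sum was 19.4 to 1469 TPM in proprioceptor, 18 to 1257 in mechanoreceptor and 181 to 3892 in nociceptor libraries, and the 10 that were tested all had negative fold changes in both contrasts. Of 6 proliferation genes all had negative fold changes in both contrasts, and their summed TPM was 32.0 to 77.1 in proprioceptor, 32.5 to 40.1 in mechanoreceptor and 47.7 to 165 in nociceptor libraries. Neural progenitor and smooth muscle genes were likewise highest, in mean log2 CPM, in the 5 libraries with high VIM. The summed TPM of 6 neural progenitor genes was 2.17 to 18.8 in proprioceptor, 2.03 to 20.5 in mechanoreceptor and 6.38 to 48.3 in nociceptor libraries, with SOX1, PAX6 and HES5 under 1 TPM on average. Of the 3 that were tested, 2 were negative for proprioceptor and 3 for mechanoreceptor against nociceptor cultures. HES1, a Notch target, averaged 4.64 ± 6.24 TPM in proprioceptor, 5.6 ± 8.51 in mechanoreceptor and 23.3 ± 14 in nociceptor cultures (SD). SOX2 averaged 1.22 ± 1.92, 1.14 ± 1.82 and 5.18 ± 3.54 TPM in the same order. MSI1 did not share this direction, at 2.04 ± 1.45, 1.41 ± 0.29 and 1.19 ± 0.23 TPM. Its log2 fold change was 0.39 ± 0.51 (SE) for proprioceptor and -0.04 ± 0.51 for mechanoreceptor against nociceptor cultures. The 5 smooth muscle genes summed to 12.0 to 96.2 TPM in proprioceptor, 9.0 to 118 in mechanoreceptor and 25.4 to 197 in nociceptor libraries, and 4 of 5 were negative for proprioceptor and 5 of 5 for mechanoreceptor against nociceptor cultures. Adding the mean level of the mesenchyme list to the edgeR fit as a covariate brought VIM to -0.15 for proprioceptor and -0.70 for mechanoreceptor against nociceptor cultures, and NES to -0.06 and -0.61. The mesenchyme list was highest in the same 5 libraries as the glial, neural progenitor and smooth muscle lists, so this fit cannot tell these lists apart. The part of any 1 marker list in the VIM and NES values was not tested.

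**Figure D2:**
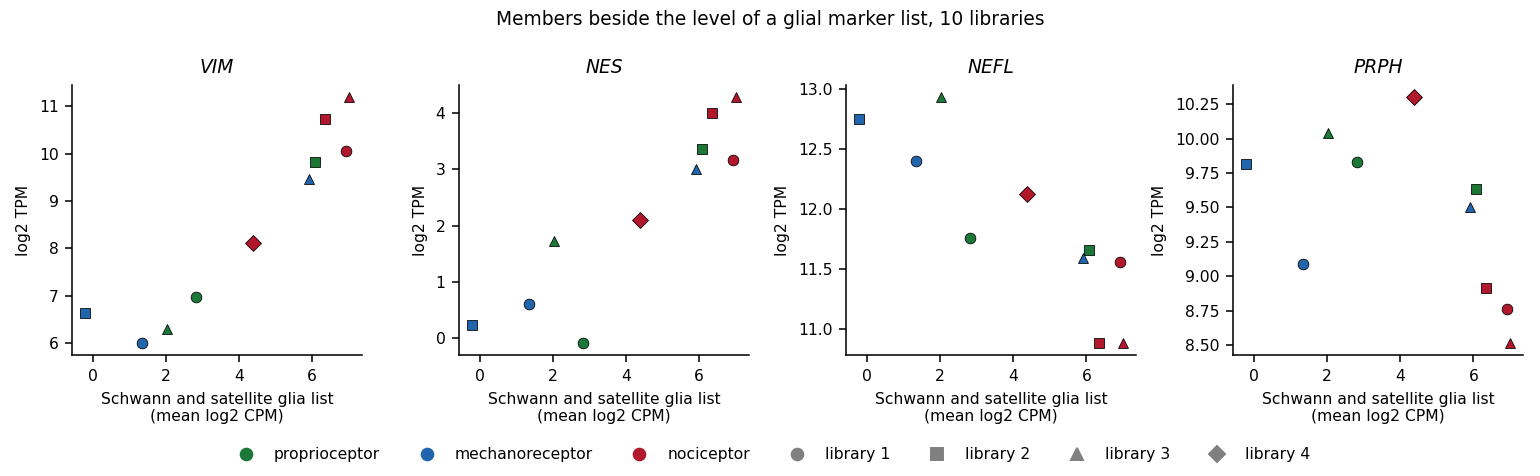
Level of VIM, NES, NEFL and PRPH (vertical axes, log2 TPM) against the mean log2 CPM of 9 Schwann and satellite glia genes (horizontal axes) in the 10 libraries. Colours give the protocol and shapes the library number. The libraries form a group with a glial level of 5.90 or more and a group of 4.38 or less, and VIM and NES are high in the first.

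The remaining members were near the bottom of the expressed range. SYNM had 1.72, 3.97 and 4.25 TPM in proprioceptor, 2.55, 3.48 and 3.64 TPM in mechanoreceptor and 1.73, 2.46, 2.30 and 3.79 TPM in nociceptor libraries, from 219 to 624 counts. The protocols overlapped. It spanned 2.47-fold, the narrowest range of the 9 tested genes, with log2 fold changes of 0.60 ± 0.35 for proprioceptor and 0.45 ± 0.35 for mechanoreceptor against nociceptor cultures (adjusted p = 0.666 and 0.693, edgeR). GFAP rested on 8 to 25 counts a library and ranged from 0.333 TPM in proprioceptor 3 to 2.23 TPM in nociceptor 4. Its log2 fold changes against nociceptor cultures were -0.12 ± 0.57 for proprioceptor and -0.40 ± 0.57 for mechanoreceptor cultures (adjusted p = 0.959 and 0.845, edgeR), and the first was positive, at up to 0.16, without proprioceptor 3 or nociceptor 4. Among 6 astrocyte genes, AQP4 and ALDH1L1 averaged under 1 TPM, SLC1A3 1.12, GJA1 2.27, SLC1A2 5.12 and AGT 7.04 TPM. The sum of the 6 was 8.91 to 23.5 TPM in proprioceptor, 7.25 to 25.8 in mechanoreceptor and 9.27 to 42.0 in nociceptor libraries.

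DES was listed at 0 in proprioceptor 1 and 3 and in mechanoreceptor 1. Elsewhere it had 2 to 22 counts, which gave 0.435 TPM in proprioceptor 2, 0.139 and 0.228 TPM in mechanoreceptor 2 and 3, and 0.0743, 0.217, 0.656 and 0.104 TPM in nociceptor libraries 1 to 4. No fold change is given for it. Skeletal muscle markers were similarly scarce: 8 of 9 averaged under 1 TPM, MYF5 was at 0 counts in every library, and the sum of the 9 was 2.42 to 2.87 TPM in proprioceptor, 2.04 to 4.20 in mechanoreceptor and 1.28 to 13.6 in nociceptor libraries. Desmin is also made in some smooth muscle, and of the 5 smooth muscle genes MYH11 and LMOD1 averaged under 1 TPM. TAGLN averaged 12.2 ± 13.3 TPM in proprioceptor, 15.1 ± 22.7 in mechanoreceptor and 52.4 ± 48.5 in nociceptor cultures (SD). CNN1 averaged 6.74 ± 0.93 TPM in proprioceptor, 6.66 ± 2.24 in mechanoreceptor and 14.8 ± 14.3 in nociceptor cultures. ACTA2, smooth muscle actin, averaged 21.7 ± 33.7 TPM in proprioceptor, 24.4 ± 37.0 in mechanoreceptor and 48.2 ± 29.6 in nociceptor cultures (SD). The part of either muscle list in the DES values was not tested.

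Seen together, 6 of the 9 tested members had a positive log2 fold change for proprioceptor against nociceptor cultures and 3 a negative one, with a median of 0.60 against 0.03 over all 16130 genes, of which 52.2% were positive. The same 6 were positive and the same 3 (NES, VIM and GFAP) negative for mechanoreceptor against nociceptor cultures, with a median of 0.38 against 0.00 over all genes, of which 50.1% were positive. These contrasts share the nociceptor libraries, so they are not independent of each other. All 5 neuronal members were positive in both, with a median of 0.88 for proprioceptor and 0.77 for mechanoreceptor against nociceptor cultures. With the mean level of the mesenchyme list as a covariate, most of these differences shrank. NEFL was 0.18 for proprioceptor and -0.05 for mechanoreceptor against nociceptor cultures, NEFM 0.01 and -0.19, PRPH 0.34 and -0.30, and INA 0.09 and 0.08. NEFH stayed at 0.83 ± 0.42 (SE) for proprioceptor and 0.87 ± 0.42 for mechanoreceptor. Its unadjusted p in that fit was 0.0713 and 0.0608 (edgeR). Measured against NEFL of the same library, the NEFH differences were smaller. The log2 ratio differed by -0.0055 ± 0.41 (SE) between proprioceptor and nociceptor cultures. Between mechanoreceptor and nociceptor cultures it differed by 0.18 ± 0.46. None of the 9 passed an adjusted p of 0.05, and neither did any other gene (0% of 16130) in edgeR's test, in these contrasts or in its F test across all 3 protocols, where NEFH had the smallest p of the members (0.0371, adjusted 0.813) and 5.73% of all genes had an unadjusted p under 0.05. At an unadjusted p under 0.05, NEFH passed for proprioceptor against nociceptor cultures, where 6.19% of all genes did (998 genes), and NEFH and NES passed for mechanoreceptor against nociceptor cultures, where 8.18% of all genes did (1320 genes). DESeq2 called 31 genes for proprioceptor and 123 for mechanoreceptor against nociceptor cultures, none of them a member.

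Between proprioceptor and mechanoreceptor cultures PRPH had the largest difference of the neuronal members, 0.69 ± 0.49 on the log2 scale, and NEFL, NEFM, NEFH and INA differed by 0.19 ± 0.51, 0.23 ± 0.62, -0.04 ± 0.37 and 0.00 ± 0.36 (adjusted p = 1 for each, edgeR). VIM and NES differed by 0.43 ± 1.07 and 0.47 ± 0.85, with an SE larger than the difference for both. Here 7 members were positive and 2 negative, with a median of 0.23 against 0.04 over all genes, of which 53.7% were positive. NEFL and NEFM were positive in this fit, but their mean TPM was lower in proprioceptor than in mechanoreceptor cultures. It was 4833 against 5123 for NEFL and 2435 against 2690 for NEFM, so their direction depends on the scaling. No member passed at an unadjusted p under 0.05, against 1.49% of all genes (241 genes), and no gene passed after adjustment or in DESeq2. TPM values of the protocols overlapped for each member in all 3 contrasts, while 2.94% of all tested genes did not overlap for proprioceptor against nociceptor, 9.88% for mechanoreceptor against nociceptor and 5.89% for proprioceptor against mechanoreceptor libraries.

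**Figure D3:**
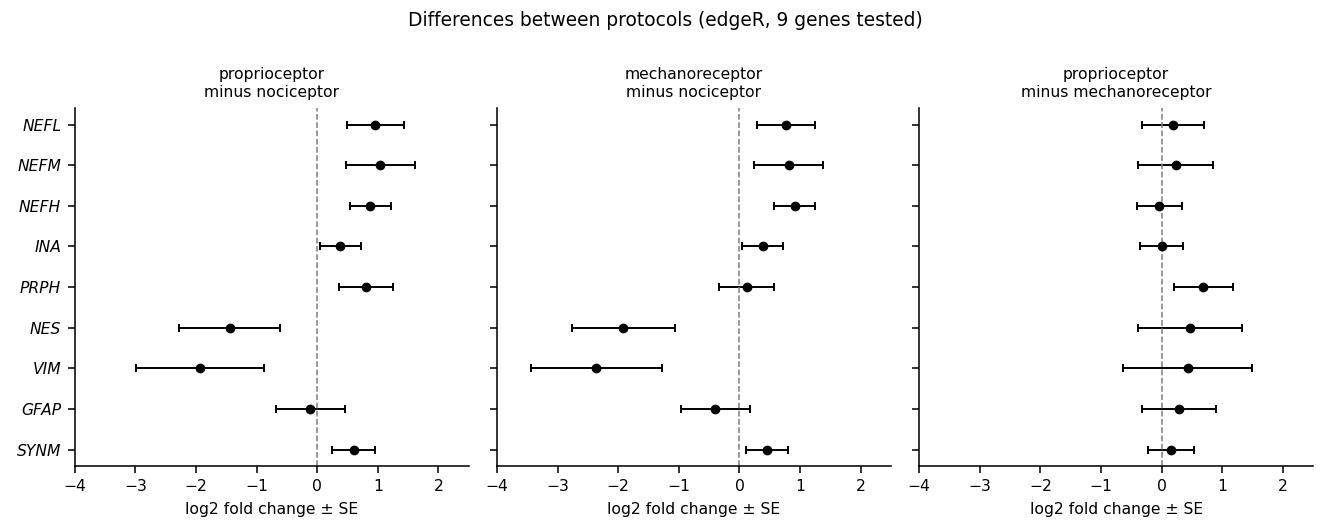
log2 fold change (horizontal axes) with its SE for the 9 tested genes, from the edgeR fit, in the 3 contrasts between protocols. The neuronal genes lie to the right of 0 and VIM and NES to the left in both contrasts with nociceptor cultures. None passed an adjusted p of 0.05.

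The subunits kept one order in gene-level TPM. NEFL exceeded NEFM, NEFM exceeded PRPH, PRPH exceeded INA and INA exceeded NEFH in 10 of 10 libraries. On mean TPM over the 10 libraries the steps were 1.97-fold, 2.795-fold, 2.19-fold and 10.5-fold. With only transcripts annotated as protein coding, a comparison added after the data were seen, PRPH was below INA in 2 libraries, at 313 against 445 TPM in mechanoreceptor 1 and 252 against 339 TPM in nociceptor 1, and the other steps held in 10 of 10. VIM moved through the gene-level order: it was above INA in 5 libraries, above PRPH in 4 and above NEFM in 3 (nociceptor 1, 2 and 3). Below them, NEFH exceeded NES in 9 libraries, the exception being nociceptor 3, and SYNM exceeded GFAP and GFAP exceeded DES in all 10.

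Ratios of TPM within a library put the subunits on a footing that library scaling does not touch. NEFM stood at 74.6%, 42.6% and 42.8% of NEFL in proprioceptor, 51.7%, 54.0% and 50.5% in mechanoreceptor, and 33.0%, 46.9%, 51.7% and 59.4% in nociceptor libraries. The 3 mechanoreceptor libraries were nearly equal and lay inside the spread of both other protocols. The mean ratio was 0.534 ± 0.184 in proprioceptor, 0.521 ± 0.0180 in mechanoreceptor and 0.477 ± 0.111 in nociceptor cultures (SD), and an exact permutation test over all 4200 assignments of the 10 libraries gave p = 0.786 (0.871 adjusted over the 6 ratios tested by the Benjamini-Hochberg method).

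NEFH stood at 0.552%, 1.18% and 0.685% of NEFL in proprioceptor, 0.607%, 0.741% and 1.47% in mechanoreceptor, and 1.13%, 0.878%, 0.685% and 0.508% in nociceptor libraries. Each protocol held a library near the low end of this range. The highest was 1.18% in proprioceptor, 1.47% in mechanoreceptor and 1.13% in nociceptor libraries. The ratio averaged 0.00806 ± 0.00331 in proprioceptor, 0.00938 ± 0.00461 in mechanoreceptor and 0.00801 ± 0.00268 in nociceptor cultures (SD, exact permutation p = 0.871, adjusted 0.871). INA stood at 5.74%, 10.9% and 6.25% of NEFL in proprioceptor, 8.23%, 5.79% and 12.1% in mechanoreceptor, and 11.2%, 10.2%, 9.87% and 9.81% in nociceptor libraries. The nociceptor libraries were tightly grouped, with proprioceptor 2 inside their range and mechanoreceptor 3 above it (exact permutation p = 0.337, adjusted 0.751).

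PRPH stood at 26.3%, 24.6% and 13.5% of NEFL in proprioceptor, 10.1%, 13.1% and 23.4% in mechanoreceptor, and 14.4%, 25.5%, 19.3% and 28.2% in nociceptor libraries. Both high and low libraries occurred under every protocol. The mean was 0.215 ± 0.0695 in proprioceptor, 0.155 ± 0.0700 in mechanoreceptor and 0.219 ± 0.0623 in nociceptor cultures (SD, exact permutation p = 0.376, adjusted 0.751). The log2 ratio differed by -0.04 ± 0.38 (SE) between proprioceptor and nociceptor cultures and by -0.54 ± 0.42 between mechanoreceptor and nociceptor cultures.

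VIM stood at 3.60%, 27.9% and 1.01% of NEFL in proprioceptor, 1.18%, 1.44% and 22.7% in mechanoreceptor, and 35.2%, 89.3%, 123% and 6.18% in nociceptor libraries, a 121-fold span. Nociceptor 1, 2 and 3 exceeded every other library and nociceptor 4 lay below proprioceptor 2 and mechanoreceptor 3. On the log2 scale the ratio differed by -3.07 ± 1.70 between proprioceptor and nociceptor cultures and by -3.54 ± 1.68 between mechanoreceptor and nociceptor cultures (SE), and the exact permutation p over all protocols was 0.153 (adjusted 0.751). NES stood at 0.753%, 1.13% and 4.20% of VIM in proprioceptor, 2.38%, 1.19% and 1.14% in mechanoreceptor, and 0.846%, 0.945%, 0.833% and 1.55% in nociceptor libraries (exact permutation p = 0.6, adjusted 0.871). Pairwise exact tests, 18 in all, gave no adjusted p under 0.686. The smallest p such a test can give is 0.0286 with 4 libraries against 3 and 0.1 with 3 against 3.

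**Figure D4:**
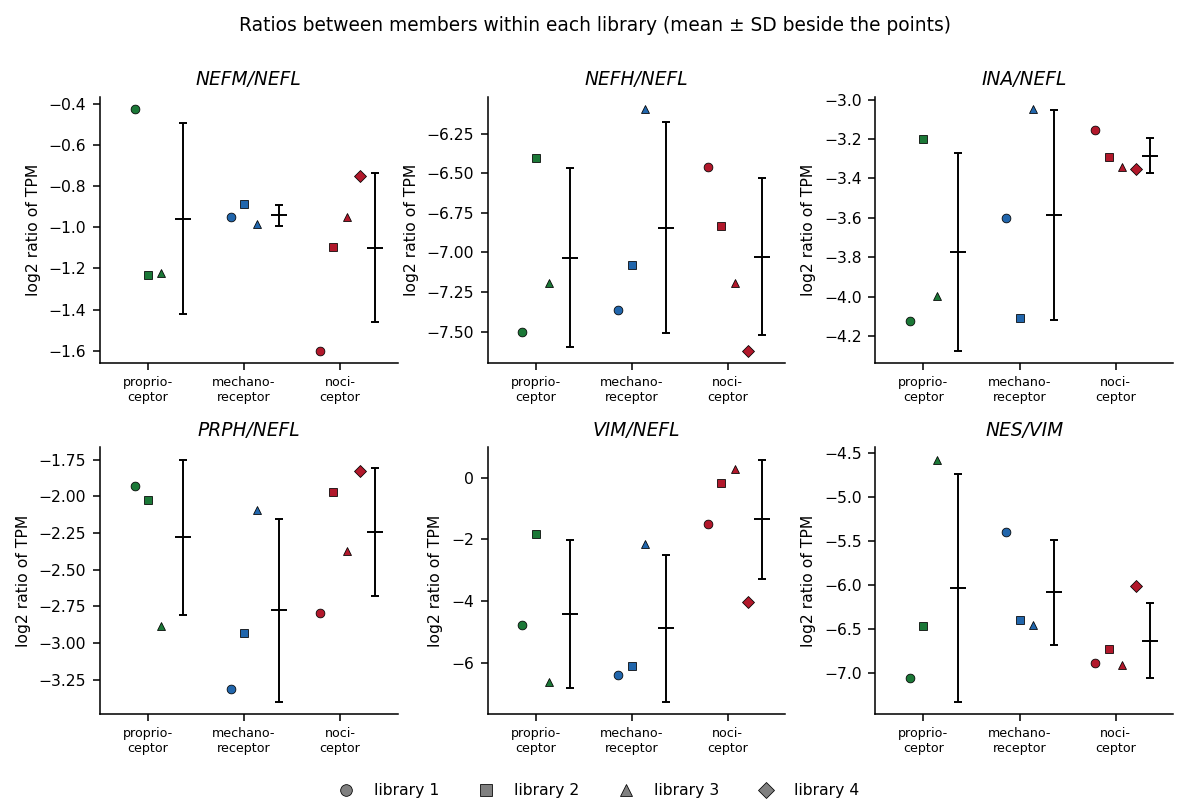
log2 ratio of TPM values between pairs of members (vertical axes, each with its own scale) in the 10 libraries, by protocol. Points are libraries and the bar beside them is the mean ± SD (n = 3, 3 and 4). VIM over NEFL spans 121-fold, and NEFM over NEFL lies between 0.330 and 0.746 in all libraries.

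As shares of the summed TPM of the 10 genes, the 5 neuronal members made up 98.2%, 86.3% and 99.3% in proprioceptor, 99.3%, 89.0% and 99.1% in mechanoreceptor, and 81.8%, 67.0%, 59.4% and 96.9% in nociceptor libraries. VIM made up nearly all of the rest, 0.616% to 13.4% in proprioceptor, 0.687% to 10.8% in mechanoreceptor and 3.02% to 40.2% in nociceptor libraries. The libraries with the large VIM shares were again proprioceptor 2, mechanoreceptor 3 and nociceptor 1, 2 and 3. Within the 5 neuronal members, NEFL took 55.1 ± 6.52% in proprioceptor, 56.5 ± 2.80% in mechanoreceptor and 55.7 ± 5.05% in nociceptor cultures (SD), and PRPH took 11.6 ± 2.89% in proprioceptor, 8.65 ± 3.43% in mechanoreceptor and 11.95 ± 2.56% in nociceptor cultures. Together the 5 took between 0.344% (nociceptor 3) and 1.27% (proprioceptor 3) of all TPM of a library.

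The level of the neuronal members was also set against other neuronal genes of the same library, as log2 TPM minus the mean log2 TPM of 12 pan-neuronal genes. On that scale NEFL spanned 0.92 log2 units over the 10 libraries, against 2.05 for its log2 TPM alone, and averaged 4.09 ± 0.39 in proprioceptor, 4.24 ± 0.43 in mechanoreceptor and 4.01 ± 0.24 in nociceptor cultures (SD). NEFH averaged -2.94 ± 0.35 in proprioceptor, -2.61 ± 0.36 in mechanoreceptor and -3.01 ± 0.71 in nociceptor cultures (SD) on that scale. Its nociceptor range, -3.76 to -2.09, held all values of the other protocols. For PRPH the span was 1.20 against 1.78, for NEFM 1.29 against 2.07, for NEFH 1.67 against 2.04 and for INA 1.18 against 1.38. The neuronal members thus varied less beside other neuronal genes than on their own. The opposite held for VIM, 6.39 against 5.19, and for NES, 5.22 against 4.37. The pan-neuronal genes themselves had positive fold changes for 12 of 12 in proprioceptor and 11 of 12 in mechanoreceptor against nociceptor cultures, with medians of 0.70 in the first and 0.44 in the second, and 0 adjusted calls in edgeR.

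The genes lie on 8 chromosomes of GRCh38.p14. NEFL (chromosome 8, 24950955 to 24956612) and NEFM (chromosome 8, 24913761 to 24919093) are neighbours. INA (103277138 to 103290346) and VIM (17228241 to 17237593) are both on chromosome 10. NEFH is on chromosome 22 (29480218 to 29491390), PRPH on chromosome 12 (49295147 to 49298686), NES on chromosome 1 (156668763 to 156677407), GFAP on chromosome 17 (44903159 to 44915500), SYNM on chromosome 15 (99105080 to 99141767) and DES on chromosome 2 (219418377 to 219426734).

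Several members had more than 1 annotated transcript. NEFL-201 carried 99.7% to 99.9% of NEFL TPM and VIM-201 carried 92.7% to 98.99% of VIM TPM. PRPH was divided between the coding PRPH-201, at 40.8% to 53.5%, and the retained-intron transcript PRPH-203, at 39.0% to 52.3%. NEFM was divided among the coding NEFM-201, at 44.3% to 66.9%, the coding NEFM-204, at 8.63% to 27.6%, and the processed transcript NEFM-205, at 12.3% to 39.6%. Gene-level TPM for PRPH and NEFM therefore includes transcripts annotated as not coding. With the most abundant transcript of each gene in place of the gene, the exact permutation p was 0.848 for NEFM over NEFL and 0.393 for PRPH over NEFL. With the coding transcripts summed, it was 0.942 for NEFM over NEFL and 0.378 for PRPH over NEFL. INA, NEFH and NES had 1 transcript each. NEFL, NEFM, PRPH and VIM each overlap an annotated antisense gene, and the library kit, which does not mark strand, leaves the reads of both mixed.

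The wider machinery around these filaments was described from lists chosen by role. Among 6 other non-keratin genes of the family, 5 were tested, and 1 was positive and 4 negative in both contrasts with nociceptor cultures, with medians of -0.23 for proprioceptor and -0.60 for mechanoreceptor. LMNA, the nuclear lamin A/C gene, averaged 196 ± 293 TPM in proprioceptor, 137 ± 202 in mechanoreceptor and 551 ± 392 in nociceptor cultures (SD), with single libraries from 17.6 to 886 TPM, and its high libraries were the 5 that were high in VIM. SYNC, syncoilin, averaged 28.6 ± 11.9 TPM in proprioceptor, 28.7 ± 6.05 in mechanoreceptor and 53.3 ± 25.7 in nociceptor cultures. BFSP1, a filament gene known from the lens, averaged 5.81 ± 0.985 TPM in proprioceptor, 5.24 ± 2.75 in mechanoreceptor and 2.65 ± 1.08 in nociceptor cultures.

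Keratins are the filaments of epithelia. Of 14 genes, 9 were tested, of which 8 were negative for proprioceptor and 7 for mechanoreceptor against nociceptor cultures, with medians of -1.07 for proprioceptor and -1.45 for mechanoreceptor. KRT10 averaged 32.4 ± 1.64 TPM in proprioceptor, 28.3 ± 5.47 in mechanoreceptor and 59.4 ± 22.5 in nociceptor cultures, and KRT18 averaged 23.2 ± 8.54 TPM in proprioceptor, 43.6 ± 9.85 in mechanoreceptor and 36.8 ± 31.2 in nociceptor cultures. KRT19 averaged 1.04 ± 0.608 TPM in proprioceptor, 1.08 ± 0.563 in mechanoreceptor and 7.98 ± 7.96 in nociceptor cultures. None of these keratins passed the adjusted test.

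Of 7 linkers that tie filaments to other structures, 6 were tested, with 2 positive and 4 negative in both contrasts with nociceptor cultures and medians of -0.25 for proprioceptor and -0.51 for mechanoreceptor. DST, dystonin, whose loss causes sensory neuropathy, averaged 126 ± 64.9 TPM in proprioceptor, 107 ± 29.3 in mechanoreceptor and 169 ± 83.2 in nociceptor cultures. Desmosomal DSP was at 0.175 ± 0.104 TPM in proprioceptor, 0.226 ± 0.180 in mechanoreceptor and 0.588 ± 0.383 in nociceptor cultures.

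Genes that phosphorylate neurofilaments or govern their turnover had mostly positive fold changes. Of 12, all tested, 9 were positive for proprioceptor and 10 for mechanoreceptor against nociceptor cultures, with medians of 0.57 for proprioceptor and 0.41 for mechanoreceptor, against 52.2% and 50.1% positive over all genes. MAPK3 (the ERK1 kinase) averaged 25.7 ± 15.9 TPM in proprioceptor, 37.1 ± 9.86 in mechanoreceptor and 13.8 ± 4.33 in nociceptor cultures, a log2 fold change of 1.16 ± 0.37 for mechanoreceptor against nociceptor cultures with an adjusted p of 0.598 (edgeR). CDK5, a kinase of the neurofilament tail, averaged 152 ± 52.8 TPM in proprioceptor, 139 ± 40.7 in mechanoreceptor and 86.5 ± 30.2 in nociceptor cultures, and its activator CDK5R1 averaged 41.8 ± 26.2 TPM in proprioceptor, 52.8 ± 4.84 in mechanoreceptor and 28.5 ± 3.29 in nociceptor cultures. PPP2CA, the catalytic subunit of phosphatase 2A, which removes phosphate from neurofilaments, was the most abundant of the 12, at 447 ± 103 TPM in proprioceptor, 504 ± 66.1 in mechanoreceptor and 470 ± 99.7 in nociceptor cultures. Its log2 fold changes were 0.04 ± 0.29 for proprioceptor and -0.01 ± 0.29 for mechanoreceptor against nociceptor cultures. Of 8 motor and adaptor genes of slow and fast axonal transport, 7 were positive in each of the contrasts with nociceptor cultures, with medians of 0.58 for proprioceptor and 0.48 for mechanoreceptor. DYNC1I1, a dynein intermediate chain, averaged 187 ± 62.1 TPM in proprioceptor, 236 ± 30.6 in mechanoreceptor and 127 ± 52.5 in nociceptor cultures. KIF5B, the ubiquitous kinesin-1 heavy chain, was the exception in both contrasts, at 43.1 ± 12.6 TPM in proprioceptor, 69.6 ± 26.0 in mechanoreceptor and 80.4 ± 21.3 in nociceptor cultures. No gene of these 5 lists had an adjusted p under 0.05 in any contrast.

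Genes whose pattern over the 10 libraries was most like that of a member were ranked by the root mean square difference of centred log2 CPM. For NEFL the nearest were ANKRD29 at 0.18, HOMER2 at 0.18 and SULT4A1 at 0.23, against a median of 0.82 over all tested genes. NEFM was the nearest other member to NEFL, at 0.30 (rank 34), and seen from NEFM, NEFL ranked 11. For PRPH the nearest were the tubulins TUBB3 at 0.20 and TUBB2A at 0.21, and RPRM at 0.22. PRPH and NEFL differed by 0.48. For VIM the nearest were TIMP1 at 0.28, TNFRSF12A at 0.28 and CDC45 at 0.32, against a median of 1.94, and NES was at 0.74 (rank 273). VIM ranked 15518 of the genes around NEFL, with a difference of 2.47. The 10 libraries form groups and share their scaling, so these values only describe likeness.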

How the data were processed

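RNA of 10 libraries was extracted with Trizol, converted to cDNA with a kit that does not mark strand (Clontech Ultra Low v4) and sequenced as paired 75 nt reads from NexteraXT libraries, per the labels' protocols. Per the submitters' processing notes, kallisto 0.50.1 was used with GRCh38.p14. The authors deposited estimated counts, as whole numbers, and TPM values per gene and per transcript. How transcripts were summed to genes is not given in the sources used here, and kallisto's division of shared reads carries an error these values do not show. Groups were taken from the library titles. Of the gene entries, 1 with a blank name (0.733% to 1.66% of the counts of a library) was left out.

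The counts were tested with edgeR 4.0.16 in R 4.3.3 (filterByExpr, TMM, 1 quasi-likelihood fit of all 10 libraries, two-sided, Benjamini-Hochberg over 16130 genes, threshold 0.05), after tests on simulated data. The common biological coefficient of variation was 0.550. Ratios of TPM were compared with exact permutation tests of the F statistic of their log2 values (two-sided by construction, numpy 2.4.6). Levels of gene lists are mean log2 CPM with a prior count of 2. No replicate pair differed by less than sampling noise (lowest chi-square per degree of freedom 122.9, scipy 1.17.1). At 27891186 or more counts a library, counting error limits mainly GFAP and DES, and PCR copies are not independent molecules. Transcript names came from a GENCODE annotation of GRCh38. Alternatives used DESeq2 1.42.0, limma 3.58.1, other filters and scaling, a marker covariate, a replicate block and left-out libraries. All 10 members are named throughout, from each list those with the smallest p across protocols or the highest mean TPM, and for likeness the 3 nearest genes. The members and the lists were chosen with earlier results of these data known.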

Additional observations from a re-analysis of the deposited data

Results flagged for a closer look

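Of 16 sets of values over the 4 nociceptor libraries (the members' TPM and the 6 ratios), 4 had nociceptor 4 far from the other 3, by a gap that exceeds Dixon's 95% critical value as a share of the range. Chance sets about 1 in 20 such groups apart. The 16 sets share the same 4 libraries, and the ratios are made from the members. They are therefore not independent, and the count of 4 cannot be weighed against that share. NEFM was at 2651 TPM in nociceptor 4, against 885 to 997 TPM in nociceptor 1, 2 and 3. PRPH was at 1260 TPM there, against 366 to 482 TPM in the others. GFAP was at 2.23 TPM, against 0.794 to 0.854 TPM, a value that rests on 25 counts. The NES-to-VIM ratio was 0.0155, against 0.00833 to 0.00945. Nociceptor 4 also had the highest mean log2 CPM of the pan-neuronal list in its protocol, 8.82 against 7.57 to 7.67, and the lowest of the mesenchyme list, 1.89 against 4.78 to 4.92. Their part in these values was not tested. Without nociceptor 4, the log2 fold change of NEFM became 1.62 for proprioceptor and 1.39 for mechanoreceptor against nociceptor cultures, and that of PRPH became 1.31 and 0.62, none past an adjusted p of 0.05 (edgeR).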

How the results depend on the processing

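Under no alternative did a member pass an adjusted p of 0.05 (the lowest was 0.188), and 442 of 480 alternative fold changes kept their direction. DESeq2 called 31 genes (12 higher, 19 lower) for proprioceptor against nociceptor, 123 (15 higher, 108 lower) for mechanoreceptor against nociceptor and 79 for any difference. The cause was not tested. Each other alternative called 0 genes. The labels do not say whether the replicate numbers mark a shared batch. Of 9 same-numbered pairs, 4 had correlations above 0.1 (range -0.633 to 0.490), and 1 of 9 libraries correlated best with its own number. With so few libraries a protocol, these correlations cannot decide whether the numbers pair the libraries. With the number as a replicate block 0 genes were called, 1974, 2392, 221 and 1746 passed an unadjusted p under 0.05 (proprioceptor against nociceptor, mechanoreceptor against nociceptor, proprioceptor against mechanoreceptor, any difference), the members among them being NEFM, PRPH, NES and SYNM for proprioceptor and NEFM, NES and VIM for mechanoreceptor against nociceptor cultures. NEFH, with an unadjusted edgeR value of 0.0789 for proprioceptor and 0.0696 for mechanoreceptor, was not among them. Only nociceptor 4 has the number 4, so the block also takes that library out of the contrasts, and out of the ratio tests. Leaving out nociceptor 4 with no block gave 2463, 2579, 274 and 2122 genes at an unadjusted p under 0.05, in the same order. The block's part in its counts was not tested apart from that of this library. Under the block GFAP turned to 0.12 for proprioceptor against nociceptor, and the ratios kept p of 0.222 or more.

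Most turns of sign were of values near 0. For proprioceptor against mechanoreceptor cultures, NEFH and INA became 0.0068 and 0.041 in DESeq2 and 0.0068 and 0.041 with median ratio size factors. With limma, NEFL, NEFM and SYNM became -0.13, -0.15 and -0.019 on log2(TPM + 1) and -0.13, -0.15 and -0.047 on log2(TPM + 0.1), where GFAP did not pass the TPM filter. With the mesenchyme level as a covariate, INA became 0.014 in this contrast, and NEFL, NEFM and PRPH became -0.053, -0.19 and -0.30 for mechanoreceptor against nociceptor cultures. VIM became -0.15 for proprioceptor and -0.70 for mechanoreceptor against nociceptor cultures in that fit. The cause was not tested. Leaving out 1 library at a time gave, for proprioceptor against mechanoreceptor cultures, NEFL -0.081 to 0.54, NEFM -0.20 to 0.63, NEFH -0.25 to 0.16, INA -0.17 to 0.13, NES -0.47 to 1.94, VIM -0.86 to 2.30, GFAP -0.15 to 0.61 and SYNM -0.0097 to 0.32. It gave GFAP -0.58 to 0.16 for proprioceptor and PRPH -0.16 to 0.62 for mechanoreceptor against nociceptor cultures. The ratios kept p of 0.069 or more (VIM over NEFL, without mechanoreceptor 3).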

Other observations

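The transcript makeup of SYNM differed between some libraries, a pattern seen after its values were examined and therefore given without a test. SYNM-202, a coding transcript, carried 23.1%, 56.9% and 54.7% of SYNM TPM in proprioceptor, 48.6%, 56.5% and 47.1% in mechanoreceptor, and 25.7%, 25.5%, 22.0% and 18.6% in nociceptor libraries. The 3 mechanoreceptor libraries lay above all 4 nociceptor libraries, and proprioceptor 1 stood with the nociceptor libraries. In gene-level TPM, 9.88% of all tested genes did not overlap between mechanoreceptor and nociceptor libraries. That proportion was not computed for transcript makeup, so this separation cannot be weighed against it. The estimated counts of SYNM-202 were 78, 356 and 429 in proprioceptor, 220.0, 387 and 278 in mechanoreceptor, and 93, 121, 80.0 and 105 in nociceptor libraries. Those of SYNM-201, the other main coding transcript, were 105 to 171 in proprioceptor, 91 to 128 in mechanoreceptor, and 78 to 211 in nociceptor libraries, which overlapped. These are kallisto estimates from small numbers of reads, and their error is not in the deposited values.

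NEFM over NEFL varied far less among mechanoreceptor libraries (SD 0.0180) than among proprioceptor (SD 0.184) or nociceptor libraries (SD 0.111), and INA over NEFL varied least among nociceptor libraries (SD 0.00652, against 0.0283 in proprioceptor and 0.0319 in mechanoreceptor libraries). The differences between these spreads were not tested.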
